A study of Mus musculus with 8 samples.

Results

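Genes that carry glucose into the cell, break it down and pass lactate out were followed through mature mouse oligodendrocytes. They are *Slc2a1*, *Hk1*, *Gpi1*, *Aldoa*, *Pgk1*, *Eno1*, *Pkm*, *Ldha*, *Ldhb* and *Slc16a1*. Chosen by name for their roles, with earlier results of these data known, they make 10 of the 18833 genes in the deposited matrix. Each of 4 mice gave 1 hippocampal and 1 cortical single-cell library, 8 in all. Mouse 1 and mouse 4 were *Fire*+/+ (labelled WT), while mouse 3 and mouse 6 were *Fire*Δ/Δ (labelled KO). *Fire*Δ/Δ mice lack an intronic enhancer of *Csf1r*, the receptor that microglia need to survive, in the germline. They have no microglia but keep other brain macrophages. All 4 mice were female and of a mixed CBA:C57Bl6J background. The age was 1 month 18 days for mouse 1 and mouse 3, against 1 month 16 days for the other pair. The labels call the second tissue cortex, whereas the study's methods describe what remained of the left hemisphere without the hippocampus. All tissues were dissociated in the presence of actinomycin D, which blocks transcription. Each of the authors' 4 batches holds 1 *Fire*+/+ and 1 *Fire*Δ/Δ library of 1 tissue.

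Oligodendrocytes make the myelin around axons, and mature ones are known for a strongly glycolytic metabolism. Glucose enters through the carrier GLUT1, the product of *Slc2a1*, and a chain of cytosolic enzymes turns it into pyruvate. Lactate dehydrogenase converts pyruvate and lactate into one another. Lactate leaves the oligodendrocyte through the monocarboxylate carrier MCT1, the product of *Slc16a1*, and is thought to feed the axon inside the myelin sheath.

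The matrix holds 12581 cells, 904 to 2784 per library, with 12015518 to 27848236 unique molecular identifiers (UMIs, 1 per captured RNA molecule) per library. The authors divided the cells into the clusters Oligo1 to Oligo4. Oligo1 has 1552 cells of *Fire*Δ/Δ mice and 6 of *Fire*+/+ mice. The myelin genes *Mog*, *Mag* and *Mbp*, defining markers of mature oligodendrocytes, had 1827 to 2002, 2660 to 3451 and 4624 to 5684 CPM (UMIs per 1000000 UMIs of the library) over the 8 libraries. *Csf1r*, the gene that holds the deleted enhancer in an intron, had 72 to 162 UMIs in each *Fire*+/+ library and 0 to 3 in each *Fire*Δ/Δ library. The summed level of 11 microglial genes was 66.9 to 160 CPM in *Fire*+/+ and 16.5 to 21.9 in *Fire*Δ/Δ libraries. *Tmem119* was the marker of that list without a UMI in *Fire*Δ/Δ libraries. A hemoglobin UMI was found in 18.5% to 35.8% of cells in *Fire*+/+ and 37.5% to 64.4% in *Fire*Δ/Δ libraries, and a UMI of 1 of 5 endothelial markers in 3.92% to 9.74% and 7.65% to 9.85%. Of 12560 cell barcodes, 21 occurred in more than 1 library.

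The 10 genes lie on 7 chromosomes (GRCm38). *Slc2a1* (chr4:119108711-119137983) and *Eno1* (chr4:150236721-150248879) share chromosome 4. *Gpi1* (chr7:34201330-34230336), *Ldha* (chr7:46841475-46855627) and *Aldoa* (chr7:126795234-126800751) share chromosome 7. The others are *Slc16a1* (chr3:104638668-104658462), *Ldhb* (chr6:142490249-142507957), *Pkm* (chr9:59656368-59679375), *Hk1* (chr10:62268855-62379908) and *Pgk1* (chrX:106187100-106203699). All of them are annotated as protein-coding. The matrix has a second row named *Aldoa*, an annotated gene just upstream on the same strand, which held 3 UMIs in all libraries together and was left aside. *Eno1b*, a close copy of *Eno1*, had 1.08 to 2.92 CPM against 39.3 to 52.0 for *Eno1*. Reads that fit both copies equally well, or a pseudogene of another member, cannot be told apart in these counts.

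Together the 10 genes took 0.111% to 0.135% of the UMIs in every library. RNA was counted at its 3′ end, 1 UMI per molecule, so levels in CPM need no division by gene length, although genes may differ in capture. *Aldoa*, which encodes the aldolase that splits the phosphorylated sugar, had the highest level, 439 ± 62.9 CPM (SD, n = 4 libraries) in *Fire*+/+ and 469 ± 58.4 in *Fire*Δ/Δ mice. A middle group of similar level followed. In *Fire*+/+ mice it ran from 142 ± 37.5 for *Ldhb*, 131 ± 12.8 for *Pgk1* (phosphoglycerate kinase, the first step that yields ATP), 130 ± 13.7 for *Gpi1* (glucose-6-phosphate isomerase) and 123 ± 9.75 for *Pkm* (pyruvate kinase) to 102 ± 19.4 for *Slc16a1*. Neighbours in that order had overlapping libraries. *Slc2a1* had 81.2 ± 1.30, where the libraries still met those of *Slc16a1*, and *Eno1*, the enolase, 44.7 ± 3.67. *Hk1*, the hexokinase that traps glucose in the cell, had 21.6 ± 1.19, and *Ldha* had 21.1 ± 4.61, so these last 2 did not differ beyond their spread. In *Fire*Δ/Δ mice the means from *Gpi1* downwards were 137 ± 11.4 for *Gpi1*, 129 ± 9.18 for *Pgk1*, 125 ± 12.1 for *Pkm*, 97.0 ± 18.6 for *Ldhb*, 84.1 ± 9.22 for *Slc2a1*, 80.0 ± 8.12 for *Slc16a1*, 45.3 ± 5.84 for *Eno1*, 27.6 ± 2.52 for *Ldha* and 23.7 ± 1.45 for *Hk1*. The place of *Ldhb* in *Fire*+/+ mice rested on mouse 4. In mouse 1 it had 111 CPM in hippocampus and 112 in cortex, below *Gpi1*, *Pgk1*, *Pkm* and *Slc16a1* of the same libraries.

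**Figure D1:**
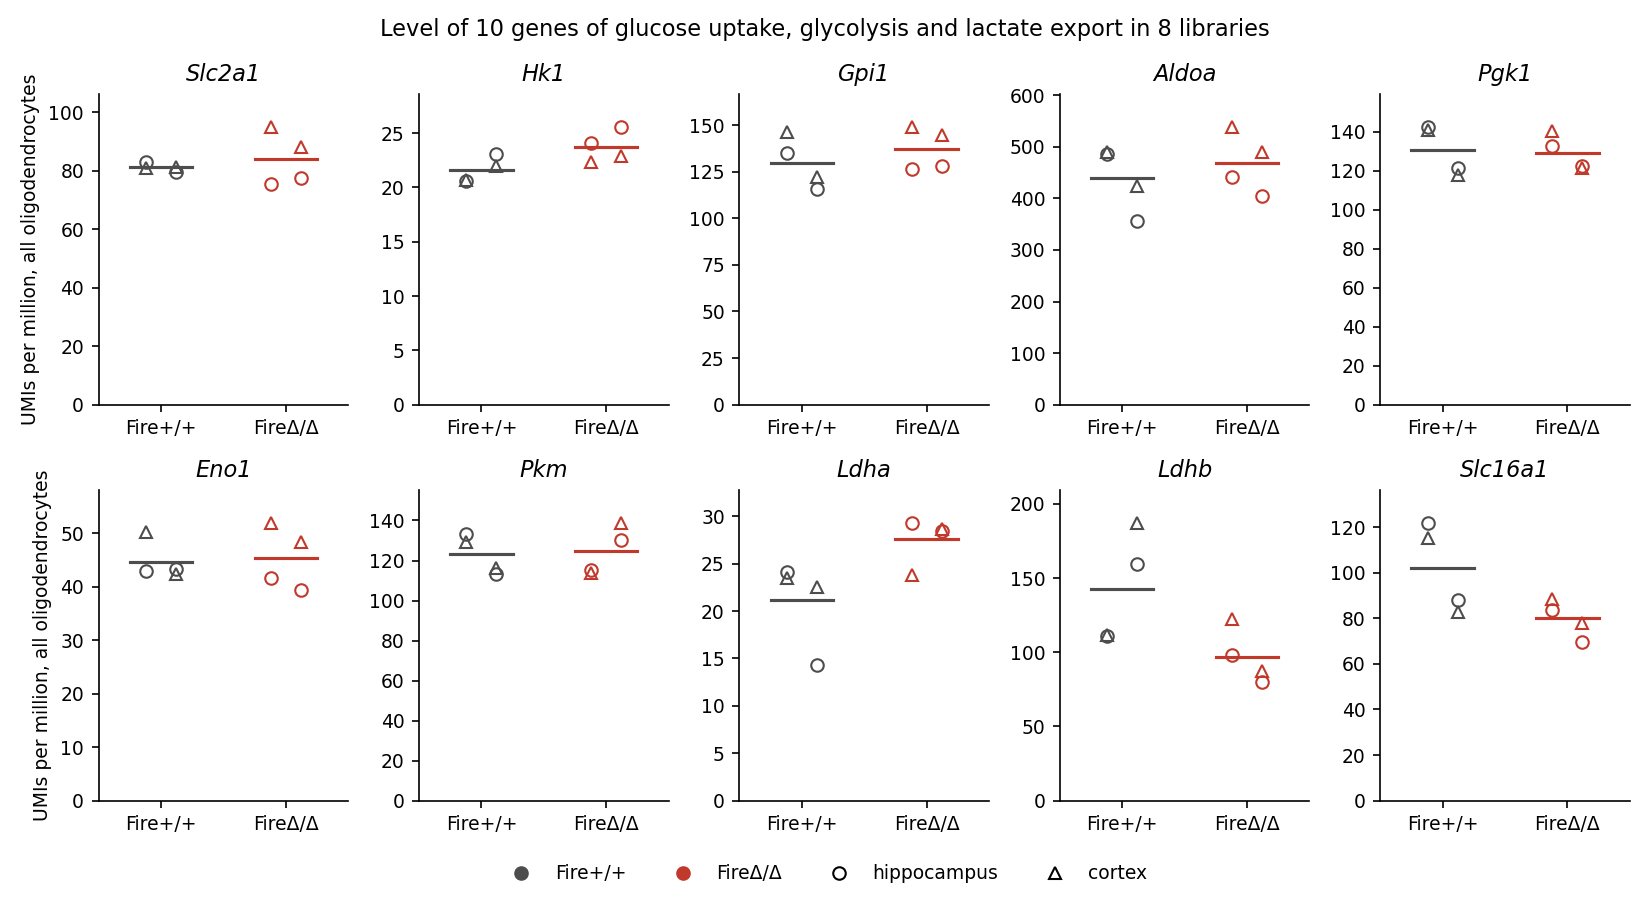
Level of the 10 genes in CPM over all oligodendrocytes of a library (vertical axis, each from 0), for 4 *Fire*+/+ (grey) and 4 *Fire*Δ/Δ libraries (red). Circles are hippocampus and triangles cortex, the left column of points in each group is mouse 1 or 3 and the right column mouse 4 or 6, and bars are means of 4 libraries. *Ldhb* is spread most among *Fire*+/+ libraries, from 111 in mouse 1 to 187 in mouse 4.

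The first comparison asked whether the level of each gene differed between genotypes over all oligodendrocytes. It did so for none of the 10 genes past the threshold, an adjusted p of 0.05 in limma over 9257 genes tested, where the share of all genes called was 0% as well. The test took each mouse's mean log2 value, which is log2 of UMIs over the cell's size factor, plus 1, averaged over cells. At an unadjusted limma p under 0.05 there were 209 genes, with no member among them, and edgeR on summed UMIs per mouse called 8 genes and no member. With 2 mice per genotype, a p that misses the threshold does not show that levels were alike. *Ldhb* had the largest difference of the 10, followed by *Slc16a1*, and both had lower means in *Fire*Δ/Δ mice. The difference had a median of 0.01 (log2) over the 10 members, 7 of them above 0, and of 0.00 over all genes, 53.9% of them above 0.

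*Ldhb* encodes the H subunit of lactate dehydrogenase, typical of tissues that burn lactate. Mouse 1 had a mean log2 level of 0.67 in hippocampus and 0.69 in cortex, and mouse 4 had 0.99 and 1.08. In *Fire*Δ/Δ mice it was 0.59 and 0.74 in mouse 3, and 0.51 and 0.55 in mouse 6. The libraries of mouse 4 were higher than all the others, and those of mouse 1 lay among the values of mouse 3. The difference between genotypes was -0.26 ± 0.15 (SE, log2 scale, 2 against 2 mice, limma adjusted p = 0.9997), place 9 from the lowest of 9257 genes. In CPM it was 142 against 97.0, a ratio of 0.681. Within batches it was -0.08 and 0.05 for mouse 3 against mouse 1, and -0.47 and -0.53 for mouse 6 against mouse 4. Leaving out mouse 4 gave -0.08 and leaving out mouse 1 gave -0.44. Over Oligo2 to Oligo4 the difference was -0.16 ± 0.16, and it was 0.01 without mouse 4.

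*Slc16a1* (MCT1) read 0.81 and 0.80 in hippocampus and cortex of mouse 1, and 0.65 and 0.60 in mouse 4. It read 0.59 and 0.67 in mouse 3, and 0.51 and 0.58 in mouse 6. The *Fire*Δ/Δ libraries were the lower of each batch, but their range overlapped that of mouse 4. The difference was -0.13 ± 0.08 (limma adjusted p = 0.9997), or 80.0 against 102 CPM. It was below 0 in all 4 batches, from -0.22 to -0.01. Of all genes tested, 9.9% were lower in *Fire*Δ/Δ libraries in all 4 batches, and *Slc16a1* was the 1 member of the 10 that was. Leaving out mouse 1, whose libraries were the highest, gave -0.03. Over Oligo2 to Oligo4 the difference was -0.11 ± 0.08 and the 4 batches ran from -0.20 to -0.00.

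*Ldha* encodes the M subunit, typical of tissues that form lactate. Its mean log2 level was 0.17 in both tissues of mouse 1, and 0.11 and 0.16 in hippocampus and cortex of mouse 4. It was 0.20 and 0.18 in mouse 3, and 0.21 and 0.21 in mouse 6. In mean log2 level the 4 *Fire*Δ/Δ libraries all lay above the 4 *Fire*+/+ libraries. *Ldha* alone of the 10 members showed this, as 2.78% of all genes did. In CPM the genotypes overlapped, with 23.8 in the cortex of mouse 3 and 24.1 in the hippocampus of mouse 1. The difference in mean log2 level was 0.05 ± 0.02 (limma adjusted p = 0.9997). It was 0.02 ± 0.02 over Oligo2 to Oligo4, where the libraries overlapped. *Ldha* and *Hk1* were higher in *Fire*Δ/Δ in all 4 batches, as 13.4% of all genes were. For *Hk1* the batch differences were 0.01 to 0.02. With cells bearing a hemoglobin or endothelial UMI left out, the differences over all oligodendrocytes were -0.25 for *Ldhb*, -0.13 for *Slc16a1* and 0.05 for *Ldha*. The part of the microglial RNA that differed between genotypes was not tested.

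The other 7 members differed by 0.08 or less in their means. *Slc2a1* had a difference of 0.03 ± 0.02, *Hk1* 0.01 ± 0.01, *Gpi1* 0.04 ± 0.05 and *Aldoa* 0.08 ± 0.11. *Pgk1*, *Eno1* and *Pkm* had differences of -0.00 ± 0.06, 0.00 ± 0.02 and 0.00 ± 0.05. For *Gpi1*, *Aldoa*, *Pgk1*, *Eno1* and *Pkm* the difference was smaller than its SE. *Aldoa* went from 1.79 to 2.13 in *Fire*+/+ and from 1.88 to 2.29 in *Fire*Δ/Δ libraries, so the groups overlapped almost entirely.

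**Figure D2:**
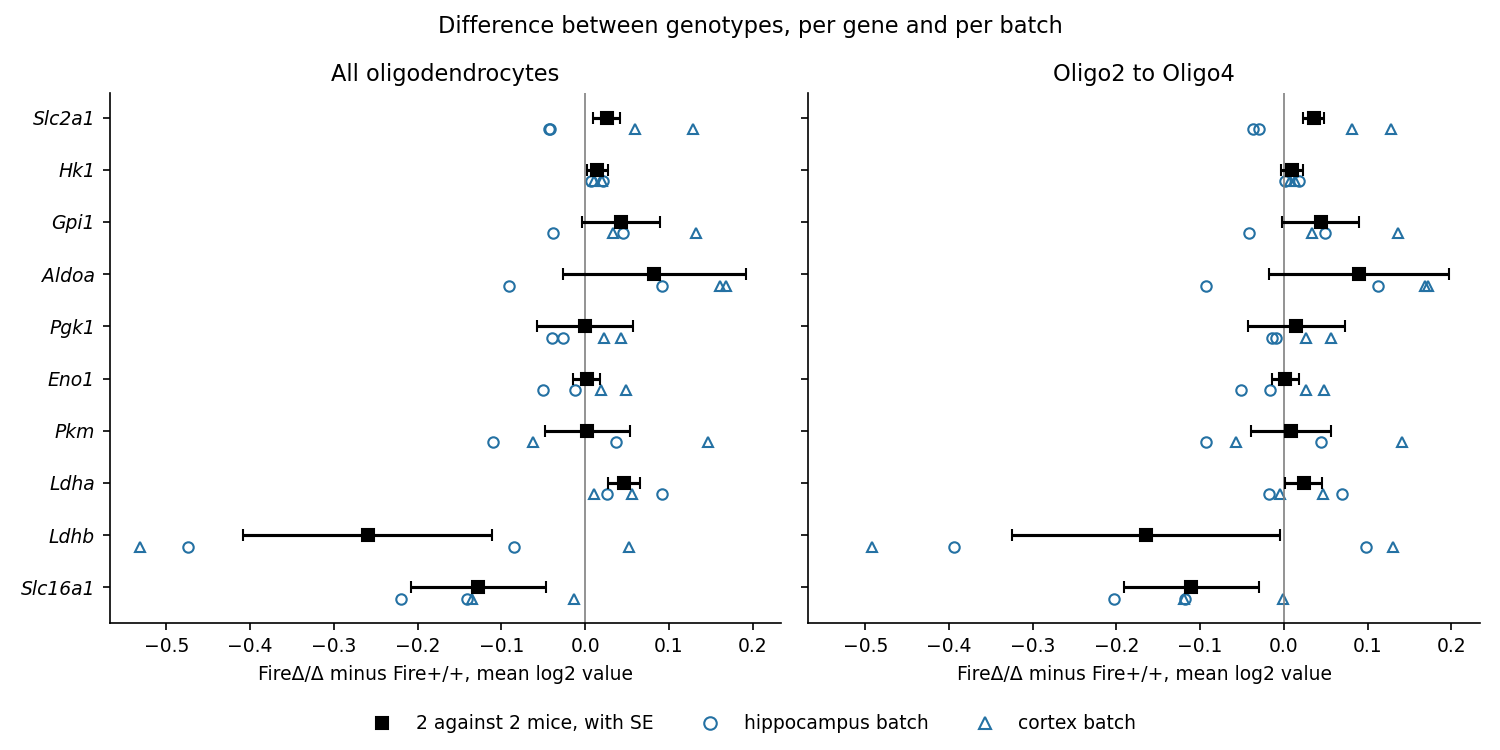
Difference between genotypes (*Fire*Δ/Δ minus *Fire*+/+, mean log2 value, horizontal axis) for each gene over all oligodendrocytes (left) and over Oligo2 to Oligo4 (right). Black squares are 2 against 2 mice with the SE, and open symbols are the 4 batches (circles hippocampus, triangles cortex). The 4 batches of *Ldhb* fall into a pair near 0 and a pair near -0.5, and those of *Slc16a1* are at or below 0.

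The same comparison was made over Oligo2 to Oligo4, which leaves out the cluster found almost only in *Fire*Δ/Δ mice, and within each cluster. None of the 10 members passed in any of these, nor did any other gene (0% of 9232, 9292, 9135 and 9381 genes tested with limma, with 133, 139, 103 and 282 at an unadjusted p under 0.05). Among the members, only *Slc2a1* within Oligo3 reached an unadjusted limma p under 0.05, at 0.05 ± 0.01 (limma adjusted p = 0.9999). *Ldhb* had a difference of -0.30 ± 0.18 within Oligo2, -0.14 ± 0.16 within Oligo3 and -0.32 ± 0.17 within Oligo4. Without mouse 4 it was 0.05 within Oligo3. Within Oligo4 its mouse means were 0.30 and 0.76 in *Fire*+/+ and 0.18 and 0.24 in *Fire*Δ/Δ mice. Without mouse 4 the Oligo4 difference was -0.09. With all 4 mice, edgeR gave a log2 ratio of -1.51 on summed UMIs (edgeR adjusted p = 0.065), a scale other than that of mean log2 values. *Ldha* had a difference of 0.02 ± 0.02 in Oligo2 and in Oligo3, and of 0.11 ± 0.04 in Oligo4 (limma adjusted p = 0.9996). The Oligo4 cells of *Fire*Δ/Δ libraries also held 30.9 to 2247 CPM of the hemoglobin genes, against 15.8 to 29.5 in *Fire*+/+ libraries. With cells that had a hemoglobin or endothelial UMI left out, the Oligo4 difference was -0.34 for *Ldhb* and 0.14 for *Ldha*.

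The next comparison set Oligo1 cells against the other cells of the same *Fire*Δ/Δ library. As cluster membership itself rests on these expression values, the differences are given as a description over 4 libraries of 2 mice, without a test. *Ldhb* was lower and *Ldha* higher in Oligo1 in every library, *Slc16a1* and *Pgk1* were slightly lower and *Hk1* slightly higher. The remaining 5 genes had libraries on both sides of 0. Thus 3 of 10 members were lower in all 4 libraries, as 15.8% of 9321 genes were, and 2 of 10 were higher, as 19.6% of genes were. The median difference was -0.03 over the members and 0.00 over all genes. For scale, *C4b* and *Serpina3n*, genes known from glial responses to injury, had differences of 2.67 ± 0.22 and 1.66 ± 0.12.

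For *Ldhb*, Oligo1 read 0.18 and the other cells 0.77 in the hippocampal library of mouse 3. The hippocampal library of mouse 6 read 0.24 and 0.60. The cortical libraries read 0.25 and 0.82 in mouse 3, then 0.23 and 0.59 in mouse 6. Oligo1 was low to nearly the same level in all 4 libraries, while the other cells were higher in mouse 3 than in mouse 6. The mean difference was -0.47 ± 0.13 (SD, n = 4 libraries), place 11 from the lowest of 9321 genes, and 30.5 against 114 CPM, a ratio of 0.267.

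*Ldha* read 0.30, 0.29, 0.28 and 0.29 in Oligo1 and 0.16, 0.18, 0.17 and 0.20 in the other cells of the same libraries (hippocampus of mouse 3 and mouse 6, then cortex of mouse 3 and mouse 6). All Oligo1 values were above all values of the other cells. The mean difference was 0.11 ± 0.02 (SD, n = 4), and in CPM 41.8 against 23.6, a ratio of 1.77.

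*Slc16a1* in the same order read 0.56, 0.43, 0.57 and 0.48 in Oligo1 and 0.61, 0.53, 0.68 and 0.59 in the other cells, a difference of -0.10 ± 0.03. *Pgk1* differed by -0.08 ± 0.04 and *Hk1* by 0.03 ± 0.02. *Slc2a1* differed by -0.07 ± 0.09, with 1 library near 0 and the cortex of mouse 6 at -0.19. *Aldoa* (-0.04 ± 0.04), *Gpi1* (-0.01 ± 0.02), *Eno1* (-0.01 ± 0.03) and *Pkm* (-0.02 ± 0.05) had differences of up to about 1 SD. With hemoglobin and endothelial UMI-bearing cells left out, 6 members were lower in all 4 libraries instead of 3.

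**Figure D3:**
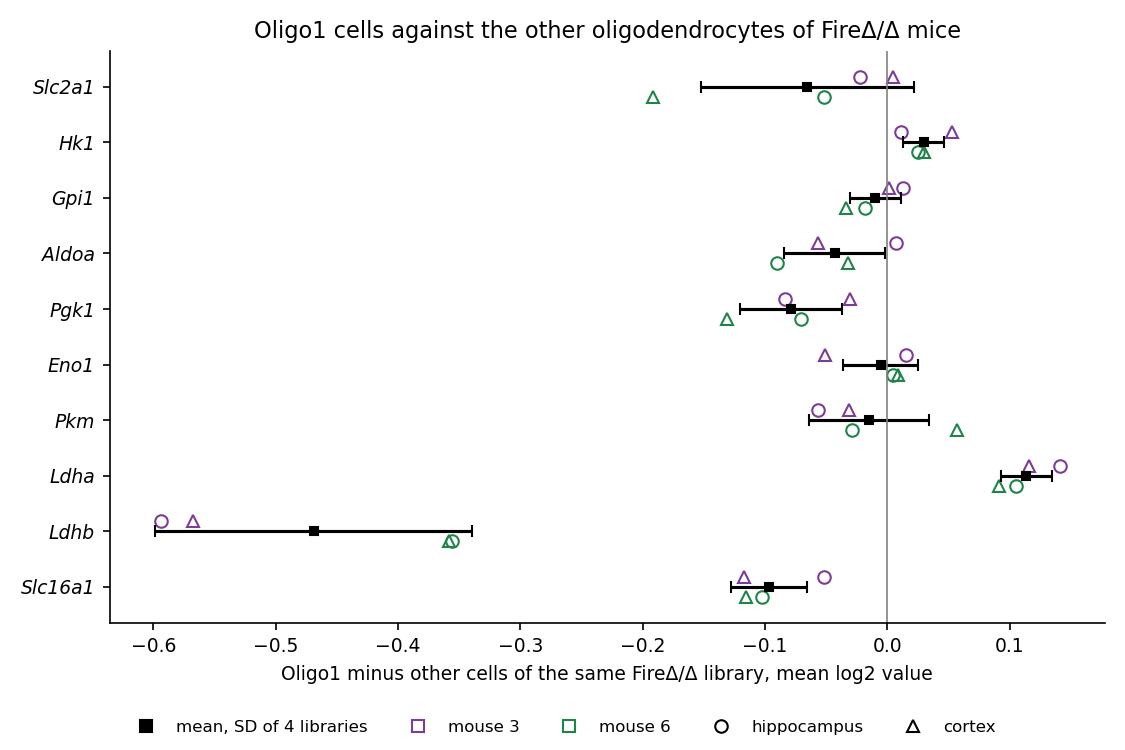
Oligo1 minus the other cells of the same *Fire*Δ/Δ library in mean log2 value (horizontal axis), for the 10 genes. Open symbols are libraries (purple mouse 3, green mouse 6, circles hippocampus, triangles cortex), and black squares are the mean with the SD of 4 libraries. *Ldhb* lies between -0.59 and -0.36 and *Ldha* between 0.09 and 0.14, apart from the other 8 genes.

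Several of these values depended on which cluster Oligo1 was set against. Against Oligo4 cells of the same libraries *Ldhb* differed by 0.01 ± 0.02 (SD, n = 4), whereas against Oligo2 it differed by -0.87 ± 0.19 and against Oligo3 by -0.38 ± 0.16. *Ldha* was 0.22 ± 0.01 above Oligo2, 0.10 ± 0.03 above Oligo3 and 0.08 ± 0.08 below Oligo4 (difference -0.08). Each of these held in all 4 libraries, with differences from Oligo4 of -0.18 to -0.01. *Pkm* was above Oligo2 in all 4 libraries (0.15 ± 0.03) and below Oligo4 in all 4 (-0.19 ± 0.11). *Aldoa* behaved alike, with 0.13 ± 0.05 against Oligo2 and -0.18 ± 0.07 against Oligo4. *Slc16a1* was below Oligo3 in all 4 libraries (-0.12 ± 0.05) and differed by -0.04 ± 0.05 from Oligo2 and -0.05 ± 0.09 from Oligo4.

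Among Oligo2, Oligo3 and Oligo4, which both genotypes contain, 4 members held 1 order in all 8 libraries. These too are descriptions, as the clusters rest on expression. No share of all genes that hold 1 order in every library is given here, so this count has nothing to be set against. *Ldhb* was highest in Oligo2, with 1.25 ± 0.26 (SD, n = 8 libraries), 0.68 ± 0.18 in Oligo3 and 0.37 ± 0.24 in Oligo4. Its level in CPM was 4.82 times as high in Oligo2 as in Oligo4. *Ldha* ran the other way, with 0.06 ± 0.02, 0.18 ± 0.03 and 0.31 ± 0.09, so that Oligo2 had 0.183 of the level of Oligo4. *Pkm* read 0.70 ± 0.06, 0.87 ± 0.06 and 1.01 ± 0.06, and *Aldoa* 1.88 ± 0.13, 2.08 ± 0.18 and 2.21 ± 0.18, both in the order of *Ldha*. For *Ldhb*, the lowest Oligo2 library (0.88) was above the highest Oligo4 library (0.79).

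The other 6 members differed less between clusters. *Slc2a1* was ordered Oligo2, Oligo3, Oligo4 in 6 of 8 libraries (0.66 ± 0.06, 0.61 ± 0.06 and 0.59 ± 0.07), and *Eno1* was ordered Oligo4, Oligo3, Oligo2 in 6 of 8. *Hk1* and *Pgk1* were ordered Oligo2, Oligo3, Oligo4 in 4 of 8. *Slc16a1* had no order in more than 3 of 8 libraries. Its cluster means (0.60 in Oligo2, 0.68 in Oligo3, 0.64 in Oligo4) differed by less than the SD over libraries, which includes differences between mice. Within each mouse Oligo3 was above Oligo2, with 0.82 against 0.75 in mouse 1 and 0.64 against 0.56 in mouse 4. The values were 0.66 against 0.64 in mouse 3 and 0.60 against 0.46 in mouse 6. Median UMIs per cell were 10480 to 13530 in these clusters.

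**Figure D4:**
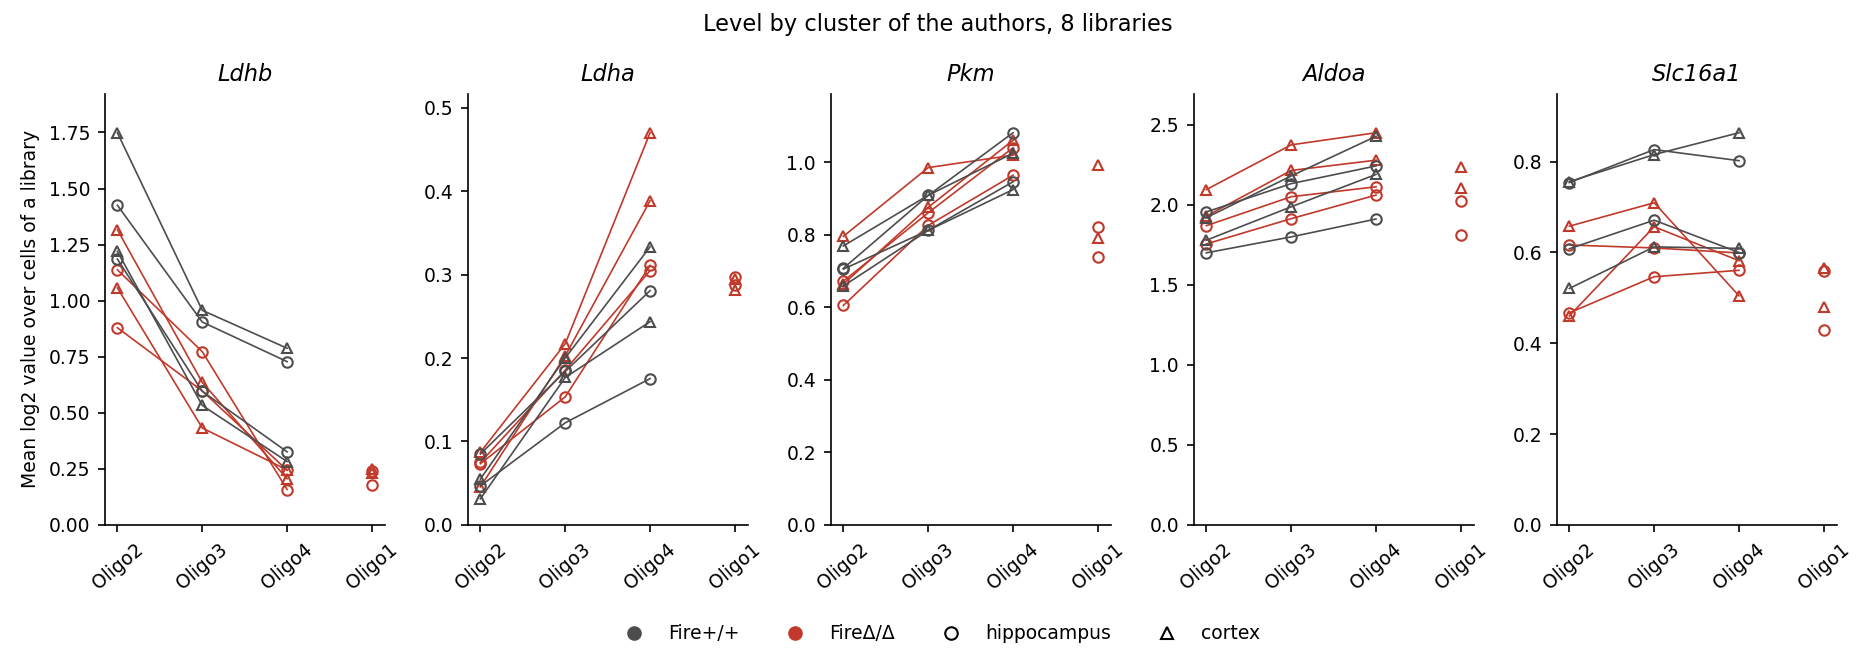
Mean log2 value of 5 genes (vertical axes, from 0) in each cluster of the authors, for *Fire*+/+ (grey) and *Fire*Δ/Δ libraries (red), circles hippocampus and triangles cortex. Lines join Oligo2, Oligo3 and Oligo4 of a library, and Oligo1 is shown for *Fire*Δ/Δ libraries only. *Ldhb* is lower in each next cluster in all 8 libraries while *Ldha*, *Pkm* and *Aldoa* are higher. The Oligo1 values of *Ldhb* lie beside those of *Fire*Δ/Δ Oligo4 and below those of *Fire*+/+ Oligo4.

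Active lactate dehydrogenase is a tetramer of M and H subunits, so the 2 subunit genes were also read as a ratio. Among all *Ldha* and *Ldhb* UMIs of a library, *Ldhb* made up 82.2% (95% Clopper-Pearson interval 80.8 to 83.5) in the hippocampus and 82.6% (81.0 to 84.1) in the cortex of mouse 1. In mouse 4 it made up 91.8% (90.6 to 92.8) and 89.2% (88.0 to 90.4). The shares were 77.0% (75.6 to 78.4) and 83.7% (82.1 to 85.3) in mouse 3, and 73.7% (71.9 to 75.5) and 75.3% (73.0 to 77.6) in mouse 6. The intervals cover counting error only. The cortex of mouse 3 lay above both libraries of mouse 1, so the genotypes overlapped by library. Averaged by mouse, *Ldhb* made up 86.4% ± 5.75 of these UMIs in *Fire*+/+ (SD over 2 animals) and 77.4% ± 4.12 in *Fire*Δ/Δ, so the genotypes lay -9.00 points apart (exact permutation test over mice, two-sided, p = 0.333, which is also the lowest p possible with 2 against 2). Without mouse 4 the value was -4.93 points. Over Oligo2 to Oligo4 alone it was -4.08 points (exact permutation test, p = 0.667), with 3.70, 4.06, -12.5 and -11.6 points in the batches.

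By cluster, the share was 94.7% to 98.9% in Oligo2 and 65.7% to 90.2% in Oligo3. In Oligo4 it was 30.9% to 43.2% in *Fire*Δ/Δ libraries, 40.4% and 51.3% in mouse 1, and 77.4% and 80.9% in mouse 4. The Oligo1 cells of *Fire*Δ/Δ mice had 38.2% to 44.3%. Oligo1 and the Oligo4 cells of the same mice were the groups of *Fire*Δ/Δ cells in which *Ldha* UMIs outnumbered those of *Ldhb* in every library. The Oligo4 values rest on few molecules, 28 *Ldha* and 19 *Ldhb* UMIs in the cortex of mouse 1, and 38 and 18 in the cortex of mouse 3.

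**Figure D5:**
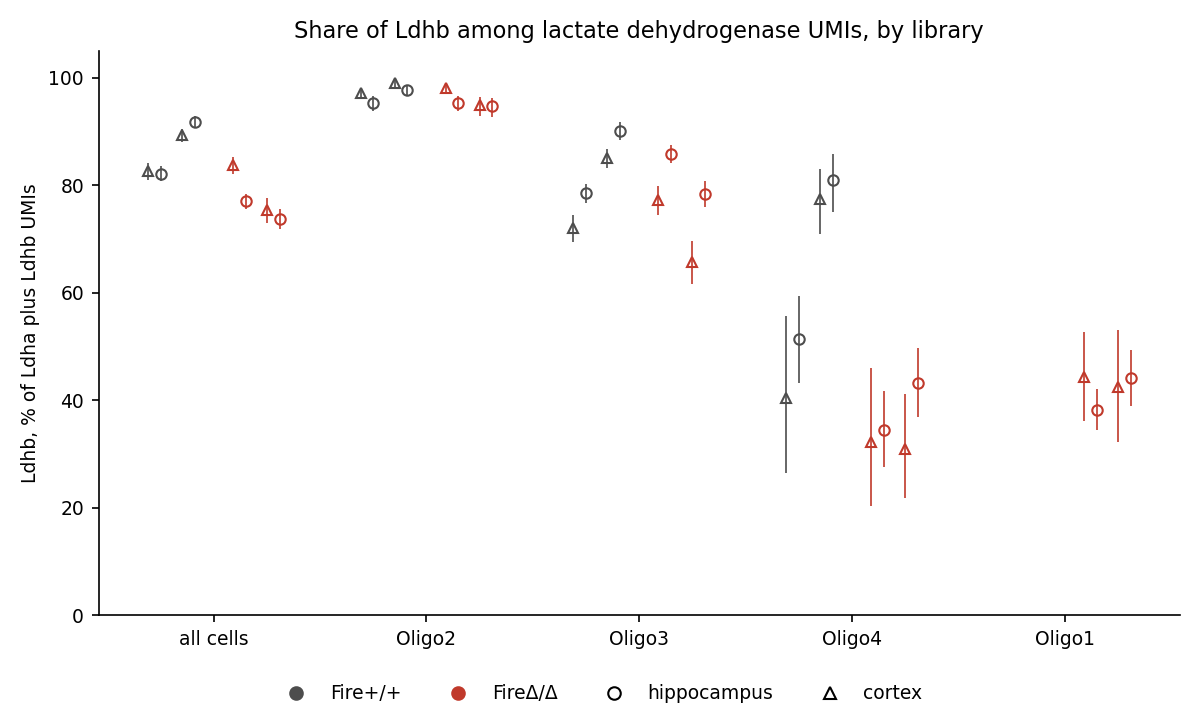
Share of *Ldhb* among *Ldha* plus *Ldhb* UMIs in percent (vertical axis) for all cells and each cluster, by library, with 95% Clopper-Pearson intervals as bars, grey for *Fire*+/+ and red for *Fire*Δ/Δ, circles hippocampus and triangles cortex. Oligo2 lies at 94.7% or more in all 8 libraries, Oligo1 at 38.2% to 44.3%, and the Oligo4 libraries of mouse 4 stand above those of the other 3 mice.

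Promoters of the subunit genes and of the 2 carriers are shown because glycolytic genes are textbook targets of the hypoxia-inducible factors (HIF), which bind a 5-base core. The core was searched as ACGTG and as GCGTG on both strands in stretches from 250 bases before to 50 after each RefSeq start site (GRCm38.p6). ACGTG lies inside the E-box CACGTG as well, so the search does not separate them. A match was found in 13 of the 17 stretches of the members, and in 43.8% of all 32851 stretches. By gene, 9 of the 10 members had a match in at least 1 stretch, all but *Gpi1*. Some members have 2 or 3 stretches, and some of those of *Aldoa* and *Eno1* overlap. No share by gene over all genes is given here, so the count by gene has nothing to be set against. ACGTG was in 19.6% and GCGTG in 32.4% of all stretches. Windows of 30 bases around the match nearest upstream of the start site follow 5′ to 3′ on the gene's strand, with the core in capitals (CACGT is ACGTG read from the other strand). They lie at chr7:46845757-46845786 (plus strand), chr6:142508067-142508096 (minus strand), chr3:104638517-104638546 (plus strand) and chr4:119108696-119108725 (plus strand).
Ldha: acgtgggttcccgCACGTccgctgggctcc
Ldhb: agcgggggagagcGCGTGcacactccagcc
Slc16a1: cgcgcagcccgcaGCGTGtggaggcgcgag
Slc2a1: agtcccgccccggACGTGctccccaggccc
The capitals begin 34 bases before the start site of *Ldha* and 126 before that of *Ldhb*, 134 before that of *Slc16a1* and 36 before that of *Slc2a1*. The stretch shown in part for *Ldha* holds 7 matches, a second one of *Ldha* 2, and that of *Ldhb* 1. The *Ldha* window also begins with a further ACGTG, left in lower case, as capitals mark only the match nearest upstream. A match is a stretch of letters and not a measured binding site, and no binding was measured in these libraries.

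Between tissues, hippocampus minus cortex over 8 libraries with genotype in the model, no member and no other gene passed (0% of 9257 genes with limma, 490 at an unadjusted p under 0.05). *Gpi1* (-0.09 ± 0.04) and *Eno1* (-0.06 ± 0.02) reached an unadjusted limma p under 0.05, with adjusted p of 0.929 and 0.893. *Aldoa* had -0.18 ± 0.09, below 0 in each of the 4 mice (-0.02, -0.18, -0.27 and -0.25 in mice 1, 4, 3 and 6). That fit took the 2 libraries of a mouse as separate. With the mouse as a block, *Gpi1*, *Aldoa*, *Ldhb* and *Eno1* reached an unadjusted limma p under 0.05. Their limma adjusted p were 0.219, 0.222, 0.270 and 0.309. The count of all genes at that unadjusted p in the blocked fit is not given here, so the count of members has nothing to be set against. Of the 10 members, 9 had a lower mean in the hippocampus, as did most genes (35.6% of all genes were above 0).

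Whether the genotype difference itself differed between tissues was asked of each mouse's hippocampus minus cortex value. No gene passed (0% of 9257, 574 at an unadjusted p under 0.05, 4 of them members). The interaction was -0.11 ± 0.02 for *Slc16a1* (limma adjusted p = 0.792), -0.14 ± 0.03 for *Slc2a1*, -0.16 ± 0.06 for *Aldoa* and -0.08 ± 0.02 for *Pkm*. For *Slc16a1*, hippocampus minus cortex was 0.01 and 0.05 in mice 1 and 4, and -0.07 in both mouse 3 and mouse 6. *Ldha* was the 1 member with a value above 0 (0.03 ± 0.02). The values of all genes had a median of -0.01, with 33.7% above 0.

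The other genes of glucose and lactate metabolism were read from lists by role, and none of their tested genes passed between genotypes over all oligodendrocytes. Of 16 other glycolytic enzymes, 11 had enough UMIs to test, and 9 of these had a difference above 0, the highest in *Gapdh* (0.13 ± 0.09) and the lowest in *Pfkfb3* (-0.01 ± 0.01). All 4 tested carriers of 13 were above 0, from *Slc2a8* (0.00 ± 0.01) to *Slc16a7*, which encodes MCT2 (0.02 ± 0.02). Of genes for pyruvate entry into mitochondria 9 of 11 tested were above 0, with *Mpc2* highest (0.06 ± 0.11) and *Dlat* lowest (-0.00 ± 0.02). Of 9 genes of the NADH shuttles 7 were above 0, with *Gpd1* highest (0.07 ± 0.04) and *Got2* lowest (-0.02 ± 0.01). The pentose phosphate genes had 6 of 7 above 0 (*Taldo1* 0.07 ± 0.09, *Rpia* -0.00 ± 0.01). Glycogen genes had 4 of 6 above 0 (highest *Ugp2*, 0.03 ± 0.01), and the HIF pathway and its targets outside glycolysis 6 of 14 (*Ndrg1* 0.12 ± 0.10, *Vegfa* -0.02 ± 0.02). These counts stand beside 53.9% of all genes above 0.

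In Oligo1 against the other *Fire*Δ/Δ cells, the same lists were again described without a test. Of the 11 other glycolytic enzymes, 3 were higher in all 4 libraries (*Tpi1*, *Eno2* and *Pfkfb4*) and 3 were lower in all 4 (*Pfkm*, *Pfkl* and *Aldoc*), beside 19.6% and 15.8% of all genes. *Eno2*, the enolase known from neurons, had the highest difference (0.09 ± 0.01, SD, n = 4) and *Aldoc*, an aldolase known from astrocytes, the lowest (-0.13 ± 0.04). *Slc16a7* was the highest carrier (0.08 ± 0.03) and *Bsg*, the chaperone that brings MCT1 to the membrane, the lowest (-0.13 ± 0.09). *Gpd1*, the cytosolic glycerol phosphate dehydrogenase, was the highest shuttle gene (0.16 ± 0.03), and *Slc25a13* the lowest (-0.04 ± 0.02). *Pdk3* (0.04 ± 0.02) and *Pdk2* (-0.02 ± 0.05) were the extremes of pyruvate entry, and *Pgls* (0.01 ± 0.02) and *Rpia* (-0.03 ± 0.01) those of the pentose phosphate pathway. *Ugp2* (-0.06 ± 0.04) was the lowest glycogen gene. Among HIF genes *Bnip3l* was highest (0.17 ± 0.05) and *Ddit4* lowest (-0.09 ± 0.02). Summed markers of other cells in Oligo1 were 119 to 180 CPM for 6 astrocyte genes, against 172 to 236 in the other *Fire*Δ/Δ cells, and 39.7 to 67.1 for 4 neuronal genes against 16.3 to 29.3. Single markers differed from these sums. The astrocyte gene *Gfap* was higher in Oligo1 in all 4 libraries (0.08 ± 0.07), as was *Tubb3* among the neuronal genes (0.23 ± 0.08), while *Snap25* and *Rbfox3* had differences of -0.01 ± 0.01 and -0.00 ± 0.01. Their part in these differences was not tested.

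Over the 26 groups of 1 library and 1 cluster with at least 50 cells, *Ldha* and *Ldhb* had a Pearson r of -0.90 and *Ldha* and *Pkm* one of 0.75. Of the 45 pairs of members 6 had an r above 0.5 and 16 an r below 0. The genes outside the members most like *Ldha* were *Eno2* (0.94), *Nlgn2* (0.92) and *Rtkn* (0.92), and those most like *Ldhb* were *Pea15a* (0.93), *Apbb2* (0.90) and *Sowaha* (0.89). *Pkm* was most like *Fbxl5* (0.91), *Kcna2* (0.90) and *Gde1* (0.90), and *Slc16a1* most like *Tubb4a* (0.83), *Dnajc19* (0.82) and *Fbxo7* (0.81). For *Aldoa* they were *Ckb* (0.83), *Degs1* (0.83) and *Gnai2* (0.81), for *Pgk1* *Stmn1* (0.86), *Rnf13* (0.85) and *Tceal1* (0.84), and for *Gpi1* *Ube2v2* (0.83), *Ciao2a* (0.81) and *Sptssa* (0.81). For *Slc2a1* they were *Gdi2* (0.81), *Rasl12* (0.80) and *Arfip1* (0.77), for *Eno1* *Serinc3* (0.76), *Borcs7* (0.76) and *Tspan31* (0.72), and for *Hk1* *Top1mt* (0.76), *Tspan9* (0.75) and *Tns1* (0.74). The groups share libraries, mice and depth, and each r is among the highest of 9320 genes, so these are descriptions.

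Members were also read in cells with and without a UMI of an endothelial marker, since endothelial cells carry much GLUT1. *Slc2a1* was higher in the cells with such a UMI in 6 of 8 libraries, by 0.04 on average (from -0.07 to 0.09), and *Pkm* in 6 of 8 by 0.04. For the other 8 members the average difference was between -0.02 and 0.02.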

How the data were processed

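Droplet 3′ libraries were made by the authors from sorted cells, gated by scatter against doublets; no doublet caller was run here. The authors aligned reads with Cell Ranger 5.0.0 to mm10 (GRCm38), kept mature oligodendrocytes and deposited log2 values (UMIs over the scran size factor, plus 1), beside a table with total UMI counts, the percent of mitochondrial UMIs and clusters per cell. UMI counts were recovered from the deposited log2 values: all 42420937 values above 0 were whole within 0.001, and in 11264 of 12581 cells the recovered UMIs summed to the deposited total.

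Each mouse's 2 library means (log2 values) were averaged, and genotypes compared with limma 3.58.1 (R 4.3.3), with Benjamini-Hochberg adjustment over genes detected in 5% of cells or more; groups of under 20 cells were left out. p-values of the genotype comparisons and of the interaction measure the spread between these mice. The tissue comparison took the 2 libraries of a mouse as separate, except where the mouse was a block. Both libraries with 1 number come from 1 animal, and their deviations had a correlation of 0.843 (*Fire*+/+) and 0.853 (*Fire*Δ/Δ) across genes. edgeR 4.0.16 (quasi-likelihood) on UMI sums was an alternative, beside other pseudocounts, filters, blocks, cell subsets and single mice left out. The scripts were tested on simulated data. Members, lists and named genes (all members; per list the highest and lowest, except 1 gene that is not reported here; the 3 most alike) were chosen with earlier results of these data known. The study gives more cells and genes than the matrix holds; others were not analysed here.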

Additional observations from a re-analysis of the deposited data

Results flagged for a closer look

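For *Slc2a1*, *Pgk1* and *Eno1* the genotype difference over all oligodendrocytes was below 0 in both hippocampus batches and above 0 in both cortex batches, which is why they are listed. The difference in hippocampus minus that in cortex was -0.14 ± 0.03 for *Slc2a1* (limma interaction test, adjusted p = 0.792), -0.066 ± 0.03 for *Pgk1* (adjusted p = 0.818) and -0.065 ± 0.03 for *Eno1* (adjusted p = 0.826), so none passed. For *Slc2a1* the batches read -0.04 and -0.04 in the hippocampus and 0.13 and 0.06 in the cortex, and for *Pgk1* -0.04, -0.03, 0.02 and 0.04. For *Eno1* they read -0.01, -0.05, 0.02 and 0.05. Most genes shared the sign of the interaction, as 33.7% of all genes had one above 0. No share of all genes with the listed pattern over batches is given here, so the count of members with it has nothing to be set against.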

How the results depend on the processing

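Under every alternative run, no member passed the threshold of 0.05. The lowest adjusted p of a member was 0.065 (edgeR, *Ldhb* within Oligo4). The limma count of genes past it, 0 in each genotype comparison, became 2 over all cells, 2 over Oligo2 to Oligo4, 2 in Oligo2, 1 in Oligo3 and 12 in Oligo4 with log2 of the mean plus 0.1. In the same order it became 5, 2, 2, 1 and 9 with a trend, and 8, 3, 4, 3 and 25 with edgeR. With no filter on low genes it was 1 over all cells, over Oligo2 to Oligo4 and in Oligo3. With the mouse as a replicate block over libraries it was 1, 3 and 2 over all cells, Oligo2 to Oligo4 and Oligo2, with no member among them, and the block changed no call of a member. Blocking on mice of the same age gave adjusted p of 0.664 for *Ldhb*, 0.453 for *Slc16a1* and 0.563 for *Ldha*.

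The genotype difference of *Slc2a1* turned from 0.03 to -0.0025 with edgeR, -0.0019 with all cells of a mouse averaged together and -0.043 in hippocampus alone, and over Oligo2 to Oligo4 to -0.033 in hippocampus alone. Without batch 6, which the study calls poorer in quality, it turned to -0.0096 in Oligo4, and *Eno1* in Oligo2 to -0.0078. *Ldhb* over Oligo2 to Oligo4 ran from -0.34 to 0.014 with single mice left out, the highest without mouse 4. Of 1089 member values under alternatives, 80 more changed sign where the difference was smaller than its SE. The causes were not tested. The count of members lower in Oligo1 in all libraries, 3, became 6 without cells bearing hemoglobin or endothelial UMIs, 5 in hippocampus alone, and 4 to 6 with a mouse left out, where fewer libraries had to agree.

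Over all cells, leaving out single mice gave -0.44 to -0.08 for *Ldhb*, -0.22 to -0.03 for *Slc16a1* and 0.03 to 0.06 for *Ldha*. A group left with 1 mouse is assumed to vary like the other. With 2 mice per genotype, only differences far above the spread between mice could pass. Mean log2 values of low genes such as *Hk1* and *Ldha* understate ratios.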
